A study of Xenopus tropicalis with 6 samples.

Results

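The structural genes of the motile cilium were examined in whole *Xenopus tropicalis* embryos injected with *n1-src* splice-blocking morpholinos. This group of genes was chosen with earlier results of these data known. Genes were taken from the deposited expression table by name alone, as those called dynein axonemal heavy, intermediate or light chain, dynein arm assembly factor, cilia- and flagella-associated protein (CFAP), radial spoke head protein, nexin-dynein regulatory complex (DRC) component or tektin, together with *armc4*, *ccdc39*, *ccdc40*, *ccdc65*, *ccdc103*, *ccdc151*, *hydin*, *lrrc6*, *pifo*, *ropn1l*, *spag1*, *spag6*, *spag16*, *spag17*, *stk33* and *zmynd10*. This gave 76 of the 23634 genes listed. Of these, 73 had a mean of 1 or more TPM (a transcript's share of all transcripts, scaled to a fixed total in each sample) in controls or in morphants and were tested among 13382 such genes, and the other 3 were expressed below that level in both groups. The symbols of all 76 genes occur in the RefSeq gene table of assembly UCB_Xtro_10.0.

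Polyadenylated RNA came from 6 samples of whole Nigerian embryos at Stage 16, the midneurula. Control embryos (3 samples) received 10 ng of standard control morpholino, and N1-SRC morphants (3 samples), their siblings, were injected with 10 ng of morpholinos that block splicing of the *n1-src* microexon. Samples carry replicate numbers 1 to 3 in both groups, and each number is called a set here. A morpholino is an antisense oligo that is passed to all cells that inherit it, but these can lower N1-SRC only where the microexon is spliced in. The paper describes N1-SRC as neural-specific and places *n1-src* expression in the neural plate. Whether ciliated cells express *n1-src* was not examined, and no uninjected embryos were among the 6 samples. The targeted gene, *src*, had 18.7, 25.8 and 49.2 TPM in controls of sets 1, 2 and 3 and 15.6, 17.3 and 34.6 TPM in morphants, lower in every set (log2 fold change -0.44, adjusted p = 0.0398 from limma). Gene-level TPM sums all transcripts of *src* and does not separate *n1-src* from *c-src*. The paper reports reduced *n1-src* in these embryo batches by RT-PCR and a read peak over the microexon that is missing in morphants. In its transcript-level data *n1-src* fell and *c-src* transcripts were less affected. In the first morphant sample, the genes LOC108645507 and LOC100335111 together held 4.89% of all TPM, against 0.193 to 0.525% in the other samples.

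A motile cilium beats through its axoneme, a ring of microtubule doublets around a central pair. Outer and inner dynein arms on each doublet slide it along its neighbor, and radial spokes, the central apparatus and the nexin-dynein regulatory complex turn sliding into a regular beat. Dynein arms are put together in the cytoplasm by dedicated assembly factors before they enter the cilium. In the *Xenopus* neurula, multiciliated cells of the epidermis are being specified before they build their cilia, and the gastrocoel roof plate at the midline carries motile monocilia that drive leftward flow. In RNA from whole embryos, fewer ciliated cells and less of a transcript per cell cannot be told apart.

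Expression of the axonemal genes was lower in morphants. Of the 73 genes tested, 72 had a negative log2 fold change, 17 were called lower and 0 higher, where a call is an adjusted p of at most 0.05 from limma on log2(TPM + 0.5) with the set as a block. None of the genes with a positive log2 fold change had an unadjusted p under 0.05 from limma. Over all genes tested, the same fit called 5.87% lower and 2.62% higher, against 23.3% of the axonemal genes lower. The log2 fold change was negative for 8341 of all 13382 genes tested. The median log2 fold change was -0.36 for the axonemal genes and -0.068 for all genes tested. In the 17 genes called, the morphant mean was 46.0 to 72.9% of the control mean, with log2 fold changes of -0.96 to -0.43.

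Direction within sets and separation of the groups were counted apart. A gene whose morphant samples all lie below all controls is by definition lower in all 3 sets, so the first count cannot be the smaller. The morphant sample was below its own control in all 3 sets for 61 of the 73 genes (83.6%), against 38.5% of all genes tested. All morphant samples lay below all control samples for 11 of the 73 genes (15.1%), which is near the background of 11.3%. Groups overlapped for most genes, and the sets differed in level. The summed TPM of the 73 genes was 961, 855 and 1250.2 in the control samples of sets 1, 2 and 3 and 721, 735 and 891.0 in the morphant samples of the same sets. Within sets, the morphant sum was 75.1, 85.9 and 71.3% of the control sum.

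Calls in the axonemal genes, like those over all genes, depended on the pairing, on the sets used and on the filter on low values. Where few of all genes were called, 0 of the 73 is near the background. With set 3 left out, 72 of the 73 log2 fold changes stayed negative, with a median of -0.30, against -0.060 for all genes. Without the block, limma called 0 of the 73 genes (13 had an unadjusted p under 0.05), where the background was 0.00747%, and with set 3 left out it called 0 (34 with an unadjusted p under 0.05; 0.472% of all genes were called lower), with set 2 left out 5 (1.48% of all genes) and with set 1 left out 13 (5.32% of all genes). With the samples scaled to the same median, 7 were called lower and 0 higher against a background of 3.11%, 71 of the 73 log2 fold changes stayed negative, and calls over all genes moved from 786 lower and 350 higher to 416 lower and 569 higher. The share of all genes called lower was 3% with quantile normalization, 2.75% without the mean-variance trend and 0% without a filter on low values.

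**Figure D1:**
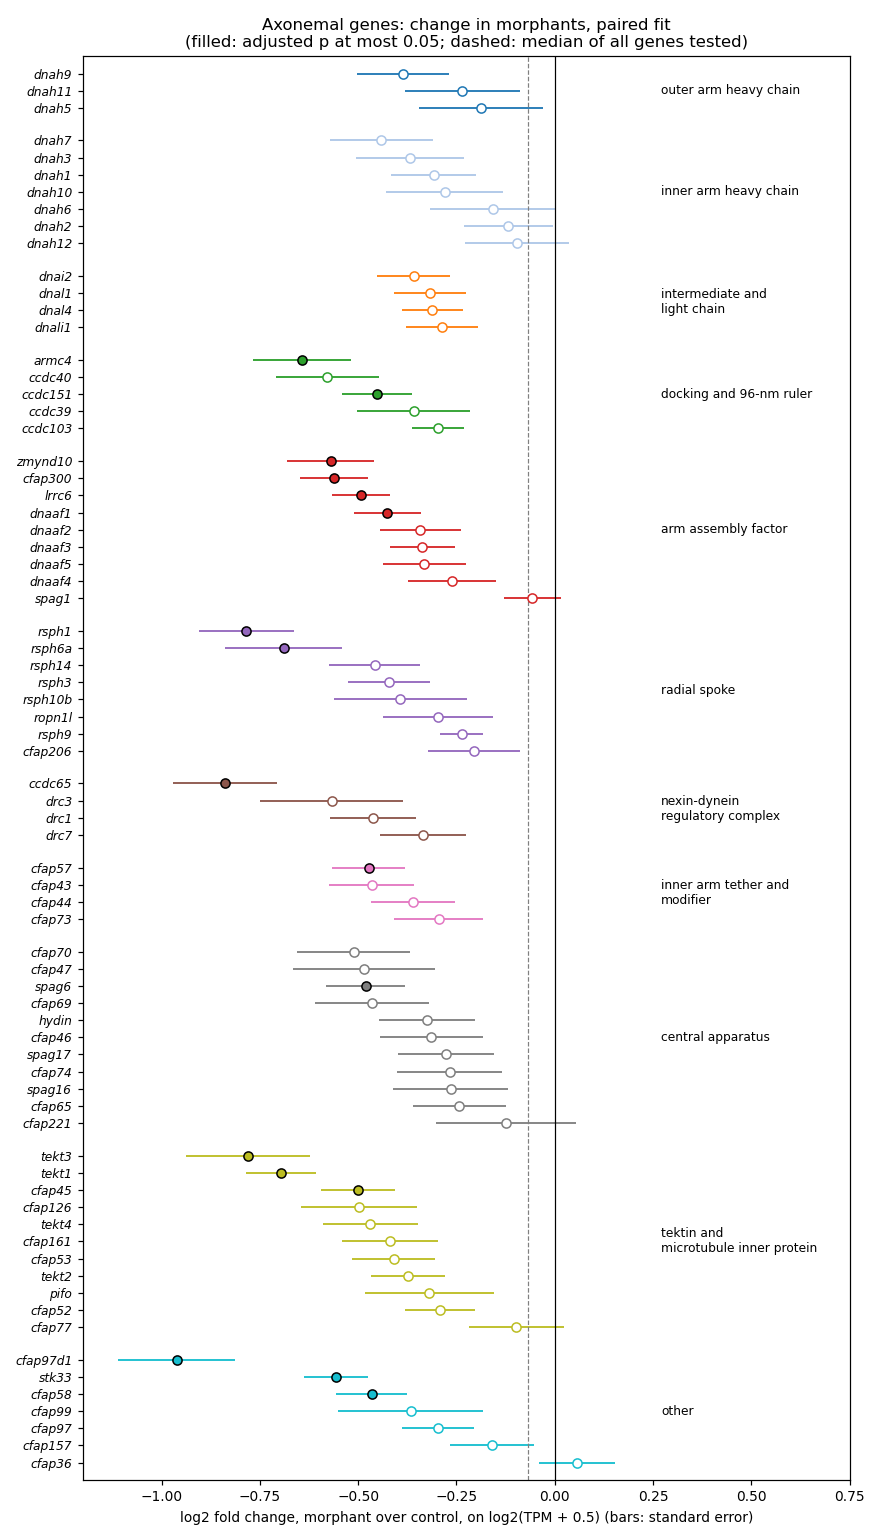
Log2 fold change of each of the 73 axonemal genes in morphants over controls on the log2(TPM + 0.5) scale (horizontal axis), grouped by role class (vertical axis), with standard error bars, n = 3 sets. Filled points are the 17 genes with an adjusted p of at most 0.05, all left of 0, and *cfap36* is the only gene right of 0.

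The motors themselves showed no call, where 5.87% of all genes tested were called lower, and 0 of so few genes is near that share. The 11 dynein heavy chain genes of the table were expressed at low levels per length, and 10 of them reached a mean of 1 TPM in at least 1 group, with means over the 6 samples of 0.964 to 3.44 TPM. All 10 log2 fold changes were negative, with a median of -0.26, but the adjusted p from limma was 0.0831 or more in each. In 4 of the 10 the unadjusted p from limma was under 0.05, all in the lower direction, against 3130 of the 13382 genes tested. Their summed TPM in morphants was 80.6% of the control sum, against 76.5% for the other axonemal genes. For *dnah9*, the heavy chain of the outer arm in the distal cilium, expression was 3.61, 2.78 and 5.41 TPM in the control samples of sets 1 to 3 and 2.67, 2.33 and 3.497 TPM in the morphant samples. Each morphant sample was below its own control, and the third morphant sample was above the second control sample. The log2 fold change of *dnah9* was -0.39 ± 0.12 (standard error), with an adjusted p of 0.0874 from limma. *dnah5*, the other main outer arm motor, stood at 1.08, 0.945 and 1.31 TPM in controls and 0.83, 1 and 0.911 TPM in morphants, with the second morphant sample above its control.

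Inner arm heavy chains gave the same picture at similarly low TPM. For *dnah1*, the control samples were at 3.68, 2.48 and 3.42 TPM and the morphant samples at 2.74, 1.87 and 2.85 TPM, lower in every set (log2 fold change -0.31, adjusted p = 0.116 from limma). *dnah2* and *dnah12*, at log2 fold changes of -0.12 and -0.096, were each lower in 2 of the 3 sets. The sign of *dnah12* was positive, at 0.024, with quantile normalization and, at 0.000575, with set 1 left out. In *dnah6*, named here for its values, sets differed far more than groups, with 0.721, 4.81 and 2.57 TPM in controls and 0.353, 4.55 and 2.84 TPM in morphants. The first set was low and the second high in both groups, and the log2 fold change of -0.16 turned to 0.023 with set 1 left out.

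Genes for the smaller dynein subunits were expressed at higher TPM. *dnai2*, an outer arm intermediate chain, *dnal1* and *dnal4*, light chains, and *dnali1*, the inner arm light chain p28, were each lower in all 3 sets, with log2 fold changes of -0.36 to -0.29, and none was called. *dnal4* was listed at 35.98, 43.8 and 61.5 TPM in control and 31.2, 36.8 and 43.8 TPM in morphant samples, and the third morphant sample was above the first control and level with the second (adjusted p = 0.061 from limma). *dnali1* was listed at 24.4, 18.2 and 28.7 TPM and 17.6, 17.2 and 22.8 TPM (adjusted p = 0.0954 from limma).

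Docking proteins fix the outer arms to the doublets. Of the 5 docking and ruler genes, 2 were called lower, against 5.87% of all genes tested. Expression of *armc4* was 9.01, 6.18 and 13.9 TPM in controls and 6.59, 4.07 and 6.89 TPM in morphants, lower in every set, and the morphant samples of sets 1 and 3 were above the control sample of set 2. Its log2 fold change was -0.64 ± 0.12 (standard error), with an adjusted p of 0.0406 from limma. *ccdc151*, a partner in the docking complex, was at 26.1, 19.6 and 29.3 TPM in controls and 17.2, 16.4 and 20.3 TPM in morphants (log2 fold change -0.45, adjusted p = 0.0415 from limma). *ccdc103*, needed for arm attachment, narrowly missed a call, at 26.1, 26.5 and 42.6 TPM against 21.2, 22.5 and 32.8 TPM (log2 fold change -0.30, adjusted p = 0.0501 from limma). *ccdc39* and *ccdc40*, whose proteins form the molecular ruler that spaces arms and spokes, had log2 fold changes of -0.36 and -0.58 and were not called.

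The start of the *armc4* transcript is shown because it holds a match to sites bound by RFX factors, which regulate ciliary genes. The supplementary list of long-read transcripts could be read in part, 879 transcripts of 483 genes, and of the 76 axonemal genes it held *armc4* alone, with 4 transcripts. Their first 150 bases were searched on both strands for GTTGCC, for GTNNCC and GGNAAC with 0 to 3 bases between them (the X-box arrangement), and for the forkhead motif TGTTTAC. The X-box arrangement was found in 2 of the 4 *armc4* transcripts. Over all that was read it was found in 7 transcripts (0.796%) and 6 genes (1.24%), counts that include *armc4* itself and so are no separate background. The match lies at bases 49 to 62 of *armc4.3* and, read on the opposite strand, at bases 45 to 58 of *armc4.4*, counted from the transcript start. GTTGCC was found in the same 2 transcripts and in 8.08% of all, and TGTTTAC in 0 of the 4 and in 1.02% of all. The capitals mark the match. Both stretches are the same through AAGGT and diverge after it, so the 2 matches are not independent. Whether the match is continuous in genomic DNA was not examined, and whether any factor binds there was not tested.
armc4.3: actccctgGTTGCCAAGGTAACttggaccc
armc4.4: actccctgGTTGCCAAGGTGACatccttgt

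Of the 9 assembly factors 4 were called (44.4%), against 5.87% of all genes tested. Shares were similar in the unplaced genes (3 of 7) and the docking and ruler genes (2 of 5). The median log2 fold change of the assembly factors was -0.34, against -0.36 for all axonemal genes. *zmynd10* and *lrrc6* encode partners in arm assembly. Expression of *zmynd10* was 10.3, 11.5 and 23.6 TPM in controls and 8.06, 7.75 and 13.02 TPM in morphants, and the third control sample was above all the others. The log2 fold change was -0.57 ± 0.11 (standard error), with an adjusted p of 0.0407 from limma. *lrrc6* was listed at 13.95, 10.7 and 16.1 TPM in controls and 9.44, 7.61 and 11.4 TPM in morphants, a drop of similar size in each set (log2 differences of -0.54, -0.46 and -0.48, adjusted p = 0.0288 from limma). It was called under 8 of the 12 alternatives, and the call was lost without the block (adjusted p = 0.593 from limma), with set 2 or set 3 left out (0.0799 and 0.0843) and without a filter on low values (0.0777).

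*cfap300* and *dnaaf1* were the other assembly factors called. *cfap300* was at 10.3, 8.28 and 15.2 TPM in controls and 6.200, 5.64 and 10.8 TPM in morphants (log2 fold change -0.56, adjusted p = 0.029 from limma). *dnaaf1*, at 12.4, 14.9 and 18.5 TPM against 9.68, 11.6 and 12.1 TPM, was separated without overlap, its highest morphant sample being below its lowest control (log2 fold change -0.43, adjusted p = 0.042 from limma). The assembly factors *dnaaf2*, *dnaaf3*, *dnaaf4* and *dnaaf5* had log2 fold changes of -0.34 to -0.26 and were not called. *spag1*, the second most abundant of all the axonemal genes, was at 60.9, 72.5 and 85.4 TPM in controls and 64.8, 63.5 and 81.3 TPM in morphants. Its first morphant sample was above its control, the log2 fold change was -0.057 ± 0.072 (standard error), with an adjusted p of 0.613 from limma, and the sign turned to 0.044 with median scaling and to 0.0093 with set 2 left out.

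**Figure D2:**
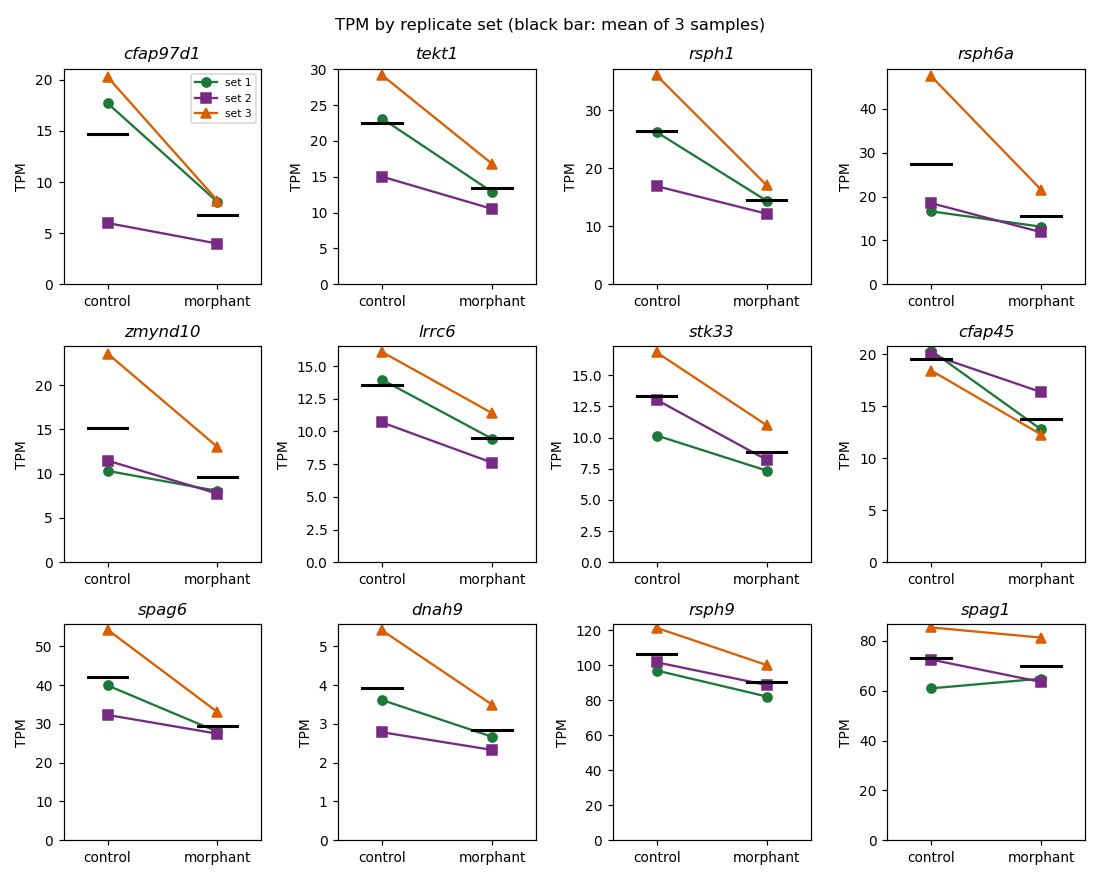
TPM of 12 axonemal genes in the 3 control and the 3 morphant samples, with lines joining samples of the same set and black bars at group means. The 9 genes from *cfap97d1* to *spag6* were called, and lines fall in every set for all but *spag1*, which rises in set 1.

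Radial spoke genes held the most abundant transcript, and 2 of the 8 tested were called lower (25%), against 5.87% of all genes tested. *rsph1*, a spoke head gene, was at 26.2, 16.9 and 36.02 TPM in controls and 14.4, 12.2 and 17.1 TPM in morphants, where the third morphant sample only just passed the second control. Its log2 fold change was -0.79 ± 0.12 (standard error), with an adjusted p of 0.029 from limma. *rsph6a*, the spoke head gene that serves the sperm flagellum in mouse, was at 16.6, 18.5 and 47.4 TPM in controls and 13.1, 11.9 and 21.5 TPM in morphants. The set 3 control was above all other samples, and the third morphant sample was above the first and second control samples. The log2 fold change of *rsph6a* was -0.69 ± 0.15 (standard error), with an adjusted p of 0.0484 from limma.

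*rsph9*, another spoke head gene, was the highest of the 73 genes, at 97.01, 102 and 121 TPM in controls and 82.2, 88.7 and 100.1 TPM in morphants. Its log2 differences in the sets were -0.24, -0.20 and -0.28, close to each other, and it did not pass the threshold (log2 fold change -0.24 ± 0.055 standard error, adjusted p = 0.0543 from limma). *rsph3*, of the spoke stalk, had groups without overlap, 26.5, 28.7 and 31.6 TPM against 19.1, 25.6 and 20.05 TPM, and was not called either (adjusted p = 0.0591 from limma). The other 4 spoke genes tested, *rsph14*, *rsph10b*, *ropn1l* and *cfap206*, had log2 fold changes of -0.46 to -0.21.

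The nexin-dynein regulatory complex links neighboring doublets, and *ccdc65*, which encodes its DRC2 subunit, came next after *cfap97d1* in the size of its decrease. Expression of *ccdc65* was 3.79, 3.26 and 7.23 TPM in controls and 2.05, 1.92 and 3.03 TPM in morphants, without overlap of the groups. Its log2 fold change was -0.84 ± 0.13 (standard error), with an adjusted p of 0.0302 from limma. *drc1*, whose product pairs with DRC2 at the base of the complex, was at 7.896, 4.61 and 7.58 TPM and 5.52, 3.78 and 4.65 TPM, lower in every set and not called (log2 fold change -0.46, adjusted p = 0.0559 from limma). *drc7*, at 4.46, 3.83 and 4.53 TPM and 3.399, 3.31 and 3.11 TPM, did not overlap between groups and was not called (adjusted p = 0.0992 from limma).

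Among the 4 genes tested for tethers and modifiers of the inner arms, *cfap57* alone was called, where 5.87% of all genes tested were called lower. It was at 6.69, 6.48 and 9.23 TPM in controls and 5.18, 4.33 and 6.16 TPM in morphants, without overlap (log2 fold change -0.47 ± 0.093 standard error, adjusted p = 0.041 from limma). *cfap44*, of the tether complex, was at 11.2, 6.704 and 9.23 TPM and 8.21, 6.11 and 6.22 TPM (log2 fold change -0.36, adjusted p = 0.0839 from limma). Its first morphant sample was above the second control.

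Of 11 central apparatus genes, which include *hydin*, *spag16* and *spag17*, all had negative log2 fold changes, from -0.51 to -0.12. Only *spag6* was called, which is 9.09% of the class and near the 5.87% of all genes tested. *spag6* was the most abundant of them, at 39.9, 32.3 and 54.3 TPM in controls and 27.98, 27.5 and 33.1 TPM in morphants, and the third morphant sample barely passed the second control (log2 fold change -0.48 ± 0.10 standard error, adjusted p = 0.0451 from limma). *cfap70* was at 5.81, 4.09 and 7.702 TPM and 4.21, 3.39 and 3.97 TPM (log2 fold change -0.51, adjusted p = 0.0758 from limma).

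Tektins and other proteins inside the doublet wall stabilize the microtubules. *tekt1* was the gene called under the most alternatives, 9 of 12, and stood at 23.1, 15.02 and 29.2 TPM in controls and 12.9, 10.5 and 16.8 TPM in morphants. The fitted log2 fold change was -0.70 ± 0.09 (standard error), with an adjusted p of 0.0232 from limma. *tekt3* was at 15.4, 5.97 and 9.72 TPM in controls and 6.94, 4.66 and 4.92 TPM in morphants, so that its first control sample was the highest, unlike set 3 in most of the genes (log2 fold change -0.78, adjusted p = 0.043 from limma). *cfap45* differed little between control samples, at 20.3, 19.9 and 18.4 TPM, and was at 12.8, 16.3 and 12.3 TPM in morphants, without overlap (log2 fold change -0.50, adjusted p = 0.0393 from limma).

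The other members of this class were not called. *tekt2* was at 30.9, 22.9 and 39.5 TPM in controls and 22.1, 20.9 and 27.4 TPM in morphants (log2 fold change -0.37, adjusted p = 0.0637 from limma). *cfap52* was at 37.7, 24.9 and 35.002 TPM and 27.96, 23.6 and 26.9 TPM (log2 fold change -0.29, adjusted p = 0.0887 from limma). All 11 genes of the class had a negative log2 fold change.

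Genes without a place in these classes held both ends of the range. *cfap97d1*, known in mouse for the upkeep of the sperm axoneme, had the largest decrease of the 73 genes, with 17.7, 5.99 and 20.3 TPM in controls and 8.05, 3.98 and 8.19 TPM in morphants. The control of set 2 was below the morphants of sets 1 and 3, so the groups overlapped although each set fell. Its log2 fold change was -0.96 ± 0.15 (standard error), with an adjusted p of 0.0291 from limma. *cfap97* itself had a log2 fold change of -0.30 and was not called (adjusted p = 0.0886 from limma).

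*stk33*, a protein kinase gene, was at 10.2, 13.02 and 16.8 TPM in controls and 7.35, 8.22 and 10.99 TPM in morphants, with the third morphant sample above the first control (log2 fold change -0.56 ± 0.081 standard error, adjusted p = 0.0282 from limma). *cfap58*, needed for the sperm flagellum in mouse, was at 9.53, 7.52 and 8.97 TPM and 6.31, 5.86 and 6.18 TPM, without overlap (log2 fold change -0.47, adjusted p = 0.0406 from limma). At the other end, *cfap36* was at 50.8, 41.9 and 36.7 TPM in controls and 44.2, 50.1 and 39.7 TPM in morphants, higher in sets 2 and 3 (log2 fold change 0.056 ± 0.097 standard error, adjusted p = 0.714 from limma), and its sign turned to -0.043 with set 2 left out. *cfap157* was at 12.5, 10.95 and 16.1 TPM and 9.14, 10.4 and 16.4 TPM, where the third morphant sample was slightly above its control (adjusted p = 0.341 from limma).

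**Figure D3:**
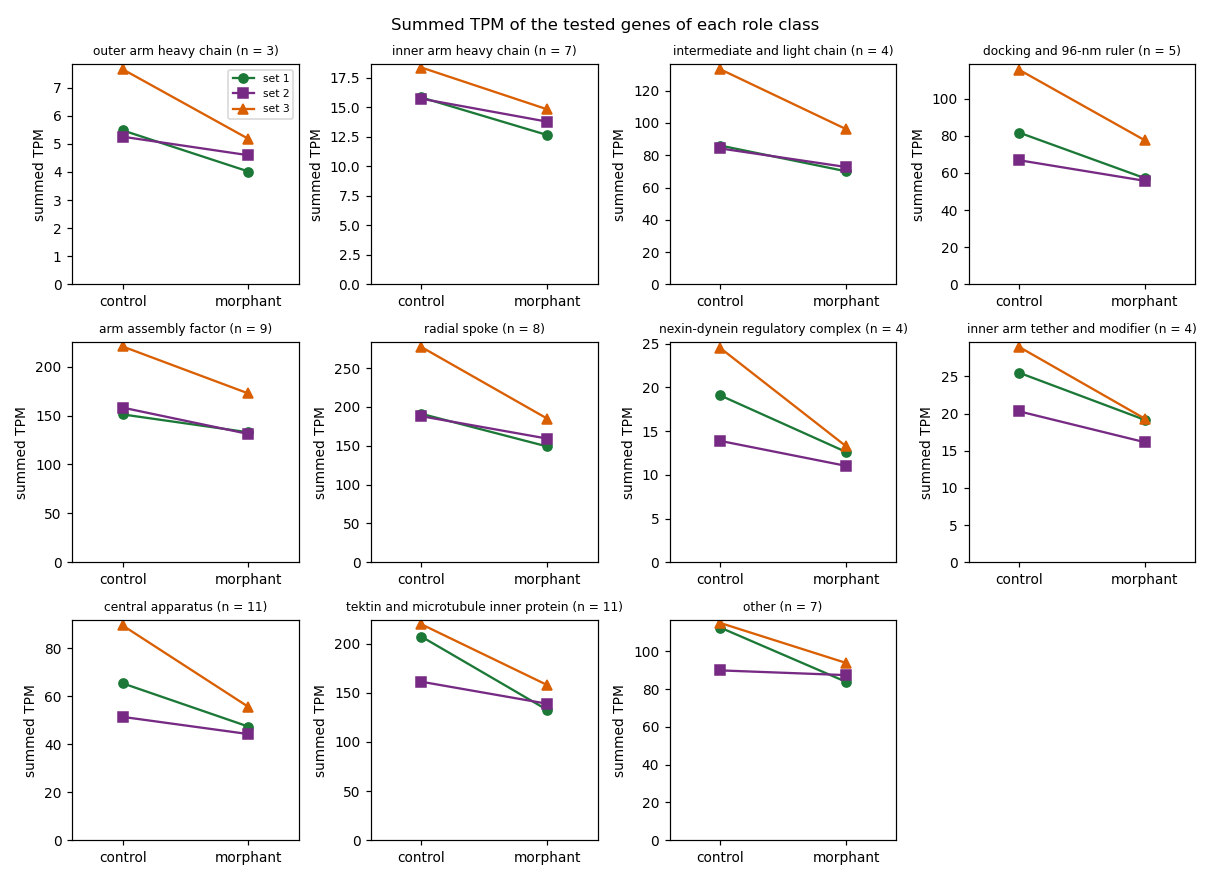
Summed TPM of the tested genes of each of the 11 role classes in control and morphant samples (vertical axes start at 0), with lines joining samples of the same set and n the number of genes. The line of every class falls in each set, and set 3 has the highest control sum in every class.

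Most calls fell on the more abundant genes. Of the 43 genes with a mean of at least 5 TPM over the 6 samples, 16 were called, and of the 30 below it 1 was called, *ccdc65*. Whether calls over all genes tested follow abundance in the same way was not examined. Standard errors of the log2 fold change ranged from 0.055 for *rsph9* to 0.18 for *cfap99*. The share of the genes in each class with a negative log2 fold change was complete in all classes but that of the unplaced genes, where *cfap36* was positive. Whether classes differ from each other in their decrease was not tested.

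At the filter on low values, *cfap221* was the gene just inside, at 0.63, 0.921 and 1.65 TPM in controls and 0.632, 1.03 and 1.04 TPM in morphants. Its sign turned to 0.042 with quantile normalization. Just outside were *dnah14*, at 1.202, 0.815 and 0.972 TPM in controls and 0.965, 0.734 and 0.714 TPM in morphants, *cfap100*, at 0.627, 0.566 and 1.38 TPM and 0.143, 0.25 and 0.886 TPM, and *cfap61*, at 0.788, 0.611 and 1.07 TPM and 0.669, 0.431 and 0.833 TPM. All 3 were lower in the morphant of every set, and all 3 stayed out of the test.

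The sets differed in their level of axonemal transcripts before any comparison of groups. Among control samples, the third was the highest for 59 of the 73 genes and the second the lowest for 53, against 6176 and 3520 of the 13382 genes tested. The median difference between the third and the second control samples was 0.59 on the log2(TPM + 0.5) scale, against 0.070 for all genes tested. The median difference between morphant and control was -0.41, -0.22 and -0.49 in sets 1, 2 and 3 on the same scale. For all genes tested it was -0.069, -0.047 and -0.091. In the third morphant sample, 51 of the 73 genes were above the second control sample and 23 above the first, against 6290 and 6748 of the 13382 genes tested.

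**Figure D4:**
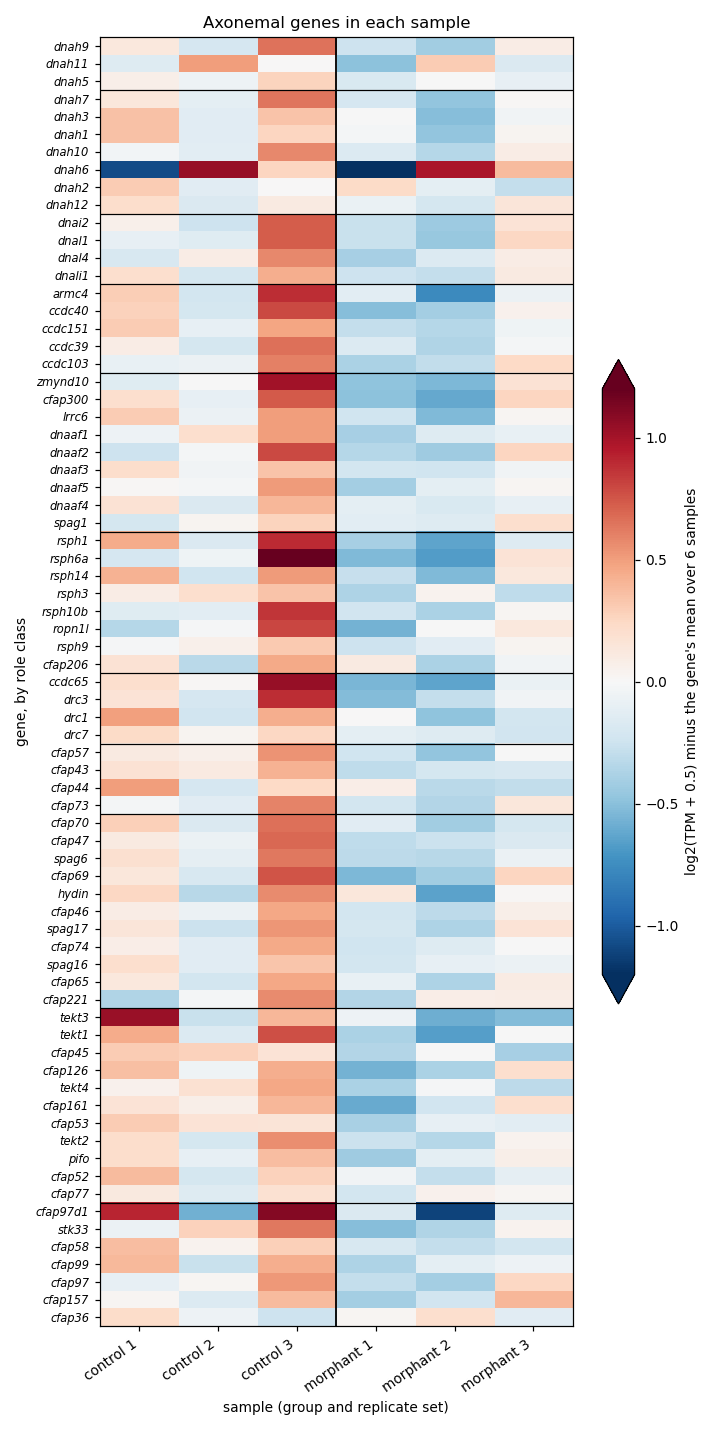
Each of the 73 genes (rows, by role class) in each of the 6 samples (columns), as log2(TPM + 0.5) minus the mean of the gene, with red above and blue below the mean and values past either end of the scale in the end color. Control 3 is red in most rows, control 2 is mostly pale blue, and morphants 1 and 2 are mostly blue, with *dnah6* following the sets instead.

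Other genes of the motile cilium moved in the same direction. A list of 104 further names, written with earlier results of these data known, gave 81 genes tested, of which 24 were called lower and 0 higher, 79 had a negative log2 fold change (2 positive, neither with an unadjusted p under 0.05 from limma), and the median was -0.40. This is 29.6% of the list called lower, against 5.87% of all genes tested. The smallest adjusted p belonged to *tuba1b*, an alpha-tubulin gene that is not particular to cilia and has near-identical relatives, at 45.3, 35.6 and 42.04 TPM in controls and 17.7, 16.9 and 17.3 TPM in morphants (log2 fold change -1.21, adjusted p = 0.0133 from limma). *ccdc105*, which codes for a tektin-like protein, was at 9.26, 4.17 and 7.59 TPM and 4.704, 2.51 and 4.51 TPM (log2 fold change -0.74, adjusted p = 0.0253 from limma).

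Regulators of the multiciliated fate were read beside them. Of 13 tested, 12 had a negative log2 fold change with a median of -0.18, and *foxn4* and *e2f4* were called lower, which is 15.4% of the list against 5.87% of all genes tested. *foxj1*, the main activator of motile cilium genes, was at 15.96, 16.8 and 30.7 TPM in controls and 14.7, 14.2 and 17.8 TPM in morphants, lower in every set (log2 fold change -0.37 ± 0.14 standard error, adjusted p = 0.123 from limma). *rfx2*, which acts with it on ciliary promoters, was at 28.8, 37.4 and 43.4 TPM and 24.3, 32.8 and 29.1 TPM (log2 fold change -0.33, adjusted p = 0.0741 from limma). *mcidas*, which starts the multiciliated program, was at 33.1, 33.9 and 48.2 TPM and 37.4, 27.5 and 39.1 TPM, with the first morphant above its control (log2 fold change -0.14, adjusted p = 0.41 from limma). *gmnc*, its upstream partner, was below 0.2 TPM in every sample. The summed TPM of the 13 regulators ranged from 253.8 to 353.7 in controls and from 217 to 266 in morphants, and the difference between their decrease and that of the axonemal genes was not tested.

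Genes listed as markers of neighboring cell types gave mixed values, and whether each is particular to its cell type was not examined. Of 11 genes of the gastrocoel roof plate and midline, *dand5* and *nodal1*, both expressed beside the motile monocilia of the roof plate, were called lower, with log2 fold changes of -0.74 and -0.81 (adjusted p = 0.0386 and 0.0328 from limma), and *t*, a notochord and mesoderm gene, was called higher, with 0.39. This is 18.2% of the list called lower, against 5.87% of all genes tested. In all, 6 of the 11 had an unadjusted p under 0.05 from limma in the lower direction, against 3130 of the 13382 genes tested. All morphants were below all controls for 4 of them, against 1515 of the genes tested. The summed TPM of these 11 genes was 312.1 to 373.0 in controls and 332.2 to 365.0 in morphants. Of 9 ionocyte genes, *ubp1* was called higher, with 0.48 (2.62% of all genes tested were called higher), and 0 lower (*atp6v1b1* and *atp6v0d2* were below an unadjusted p of 0.05 from limma in that direction), with sums of 287.7 to 337.0 in controls and 275 to 358.0 in morphants. Of 7 genes of secretory skin cells, 0 were called, with sums of 623 to 699 and 505 to 638. Within sets 1, 2 and 3, the morphant sum was 106, 97.8 and 99.9% of the control sum for the roof plate and midline genes. It was 95.7, 106 and 106% for the ionocyte genes, and 81.1, 91.4 and 77.1% for the secretory skin genes. The log2 fold changes of the secretory skin genes were negative for 5 and positive for 2, and *itln1* alone had an unadjusted p under 0.05 from limma. It narrowly missed a call, at 231, 272 and 191 TPM in controls and 97.3, 228 and 101 TPM in morphants (log2 fold change -0.80, adjusted p = 0.0503 from limma). The part of these marker genes in the decrease of the axonemal genes was not tested.

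**Figure D5:**
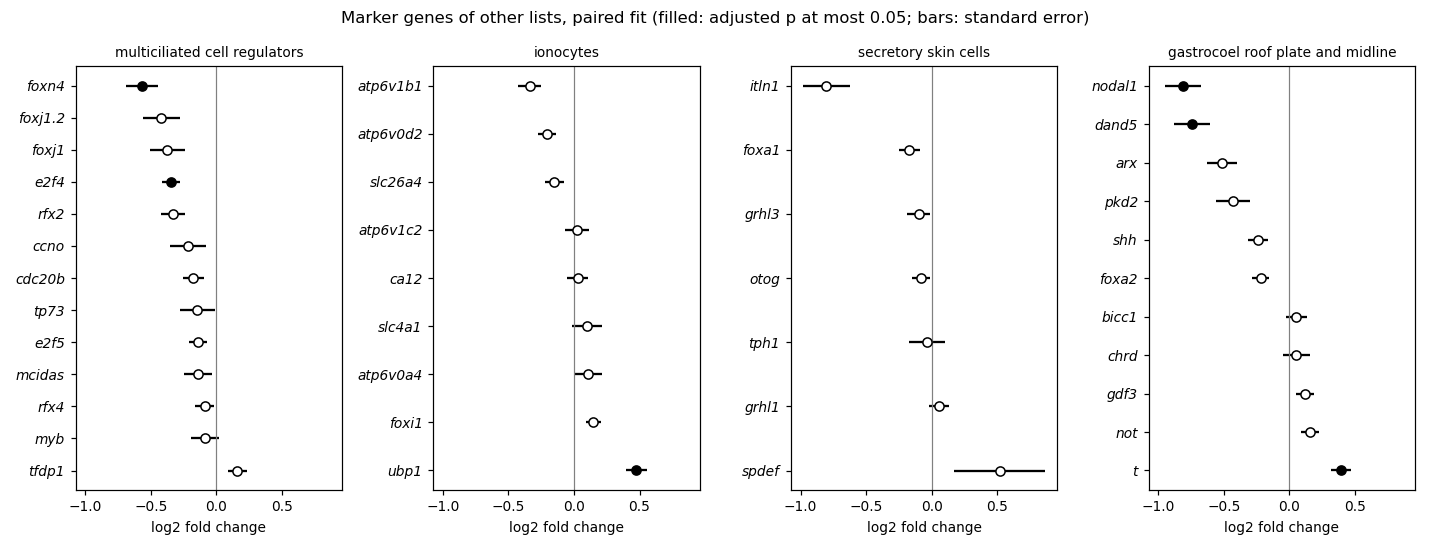
Log2 fold change in morphants over controls on the log2(TPM + 0.5) scale, with standard error bars, for 13 regulators of the multiciliated fate, 9 ionocyte, 7 secretory skin and 11 roof plate and midline genes. Filled points have an adjusted p of at most 0.05, which holds for *foxn4*, *e2f4*, *dand5*, *nodal1*, *t* and *ubp1*.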

How the data were processed

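The authors quantified Illumina reads of 6 libraries with Salmon against the *X. tropicalis* transcriptome, version 9.1, aggregated transcripts to genes and deposited TPM per gene and sample, with a mean per group. The design text names *X. laevis*, whereas labels and methods name *X. tropicalis*. TPM carry no read depth, so no counting error or floor could be given. Columns were matched by name. The 13382 genes whose mean reached 1 TPM in controls or morphants were fitted with limma 3.58.1 (R 4.3.3) on log2(TPM + 0.5), a scale that understates changes of low genes, with eBayes, a mean-variance trend, a block for the replicate number, and p-values adjusted over all of them (Benjamini-Hochberg). This leaves 2 residual degrees of freedom per gene (4 without the block). Sleuth, which the study used, was not run.

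The pairing comes from the replicate numbers of the labels and from the study, whose methods name sibling embryos and whose supplement speaks of sets. Same-numbered samples deviated together from their group means, with correlations across genes of 0.61 to 0.73. Nothing states that sets were separate clutches, so p-values do not speak for clutches in general. With the block, they measure how differences between morphant and control vary over these sets, with variances drawn together across genes by eBayes. Members and lists were chosen with earlier results of these data known.

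Named genes were those called, the 2 most abundant per class, the extremes of log2 fold change, those at the filter, *foxj1*, *mcidas*, *rfx2*, *gmnc*, *src*, and the 3 other cilium genes with the smallest adjusted p, of which 1 is not reported here. Others, and those in the plot of TPM by set, were named after their values were seen. Promoter sequences were not analysed here. The fit was also run on data simulated from the same paired model. Recovery there cannot show whether the model holds for these samples, and its values are not given here.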

Additional observations from a re-analysis of the deposited data

How the results depend on the processing

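The median log2 fold change of the axonemal genes stayed between -0.46 and -0.26 under all 12 alternatives, which were pseudocounts of 0.1 and 1, no filter or one at 5 TPM, no replicate block, each set left out, scaling to equal medians, quantile normalization, a fit without the mean-variance trend, and TPM rescaled without LOC108645507 and LOC100335111. The count called lower by limma was 17 with the block and 0 without the replicate block, 0 with no filter (49 with an unadjusted p under 0.05, and 0 of all 21387 genes called in either direction), 7 with median scaling, 7 with quantile normalization (402 of all genes), 5 without the trend (368 of all genes), and 0 to 13 with a set left out. All 7 genes called with median scaling were among the 17. The remaining alternatives kept most calls. The count was 18 of 45 with the filter at 5 TPM (689 of all 9335 genes) and 17 and 16 with pseudocounts of 0.1 and 1 (805 and 736 of all genes). Without LOC108645507 and LOC100335111 it was 15 (634 of all genes). For the other cilium genes the count went from 24 to 0 without the replicate block, 0 with no filter, 14 with median scaling, 13 with quantile normalization, 4 without the trend, and 2 to 22 with a set left out. For the same list it was 27 with the filter at 5 TPM, 26 and 24 with pseudocounts of 0.1 and 1, and 22 without LOC108645507 and LOC100335111. At 5 TPM, 40 of 45 axonemal genes were lower in all 3 sets, and the share of all genes at that filter was not counted. Signs turned for *cfap221* (0.042), *cfap77* (0.0023) and *dnah12* (0.024) with quantile normalization, *spag1* with median scaling (0.044) and without set 2 (0.0093), *cfap36* without set 2 (-0.043) and *dnah12* (0.000575), *dnah6* (0.023) and *cfap77* (0.024) without set 1, none past the threshold. Across these fits that drop a set, the values ran from -0.043 to 0.18 for *cfap36*, -0.16 to 0.000575 for *dnah12* and -0.13 to 0.0093 for *spag1*. The cause of these changes was not tested. The planned search of promoters was not run, and its place was taken by 1 gene's transcripts, chosen after the data were seen.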
